A study of Homo sapiens with 8 samples.

Results

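RNF (ring finger) and TRIM (tripartite motif) genes form large naming classes of human genes for RING ubiquitin ligases, and their mRNAs were followed here for 9 h after transcription was blocked in colorectal cancer cells with and without knockdown of RBMS1. Members were the genes whose symbol begins with RNF or TRIM followed by a digit, except RNF2 and RNF43, and that had a coding RefSeq transcript (an NM accession) in at least 1 of the 2 deposited tables. The rule took 100 of 11861 genes, 59 RNF and 41 TRIM, with 159 of 19648 NM transcripts. Of these genes, 94 were listed in both tables. The other 6 (RNF111, RNF128, RNF182, TRIM10, TRIM58 and TRIM62) were listed for control cells only.

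A RING domain binds an E2 enzyme that carries ubiquitin and brings it next to a substrate, which is then tagged for the proteasome, for sorting or for signalling. TRIM proteins join a RING domain to B-box and coiled-coil domains and, in many members, to a carboxy-terminal domain that picks the target, and they are known for their part in innate immunity. RNF is a looser naming class whose members sit on chromatin, in the endoplasmic reticulum, on endosomes and in the cytosol. A few symbols do not stand for a classical RING ligase: TRIM14, TRIM16, TRIM29, TRIM44 and TRIM66 lack the RING domain.

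The cells were SW480, an established line from a human colorectal adenocarcinoma, although the series text calls it a breast cancer line. Of 8 colon epithelial markers, 7 were listed in the tables (CDX2, EPCAM, KRT8, KRT18, KRT20, VIL1 and CDH1), against 1 of 5 breast markers (KRT5) and 0 of 6 markers of immune, endothelial, fibroblast and liver cells. Cells stably carried either the control shRNA or 1 directed at the RNA-binding protein RBMS1, and each population was taken without alpha-amanitin (0 h) and 9 h into treatment at 10 µg/mL. Alpha-amanitin is a toxin of RNA polymerase II, so that most mRNA present at 9 h had been made before. The 4 groups held 2 libraries each. The labels name 1 RBMS1 clone and the series text 2, and whether the knockdown libraries pooled clones is not given. No label says whether the libraries within a group derive from separate cultures.

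The deposited values are 1 log fold change per transcript and shRNA, 9 h against 0 h, with the libraries already combined. They were read as log2, so −1 means that 9 h held 2-fold less of the transcript, relative to the other RNA in the library, than 0 h. The direction was read from short-lived mRNAs: the authors' deposited tables list −1.44 (control) and −1.38 (knockdown) for MYC, −1.61 and −1.24 for FOS, and −1.01 and −0.81 for JUN. The tables hold no levels, so how far RBMS1 itself was reduced cannot be read from them. No counts, errors or p-values came with the values, so depth is unknown, no difference below was set against replicate error, and no test could be run. A gene's value is the mean over its NM transcripts, and a size of 1 or more marks a 2-fold change without a test. The centred difference is the knockdown value minus the control value over transcripts in both tables, less the median of that difference over all genes (−0.02).

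With all listed transcripts, the RNF and TRIM medians lay below that of all genes after 9 h, and the TRIM median lay below the RNF median. In control cells the median log2 fold change was −0.13 over 59 RNF genes and −0.26 over 41 TRIM genes, against −0.09 over all genes. In knockdown cells it was −0.22 over 56 RNF genes, −0.44 over 38 TRIM genes and −0.07 over all genes. The gap between the RNF and TRIM medians was 0.13 in control and 0.22 in knockdown cells, smaller than the spread of either class. The tables hold partly different transcripts, and over transcripts in both the gap was 0.30 in control and 0.18 in knockdown cells, so which population showed the wider gap turned. The TRIM medians were then −0.40 and −0.40. The middle 50% of RNF genes ran from −0.50 to 0.12 in control cells, and that of TRIM genes from −0.69 to −0.01.

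Values below 0 were common in both classes. Of the 100 members, 70 lay below 0 in control cells (70.0%, with 55.7% of all genes), and 70 of the 94 listed for knockdown cells did (74.5%, with 55.2%). Large values were no more common than elsewhere in RNF. In control cells 5 of 59 RNF genes (8.47%) and 7 of 41 TRIM genes (17.1%) were at −1 or below, beside 11.0% of all genes. At 1 or above stood 1 RNF gene (RNF32) and 2 TRIM genes (TRIM7 and TRIM45), beside 3.78% of all genes. The RNF32 mean rests on a transcript at 3.57 that was not listed for knockdown cells. By the authors' deposited values, its other transcript had 0.19 in control and 0.51 in knockdown cells. In knockdown cells 5 of 56 RNF genes and 4 of 38 TRIM genes were at −1 or below, beside a background of 9.88%. TRIM36 alone was at 1 or above there, beside 4.0% of all genes. Both counts for RNF are near the background.

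**Figure D1:**
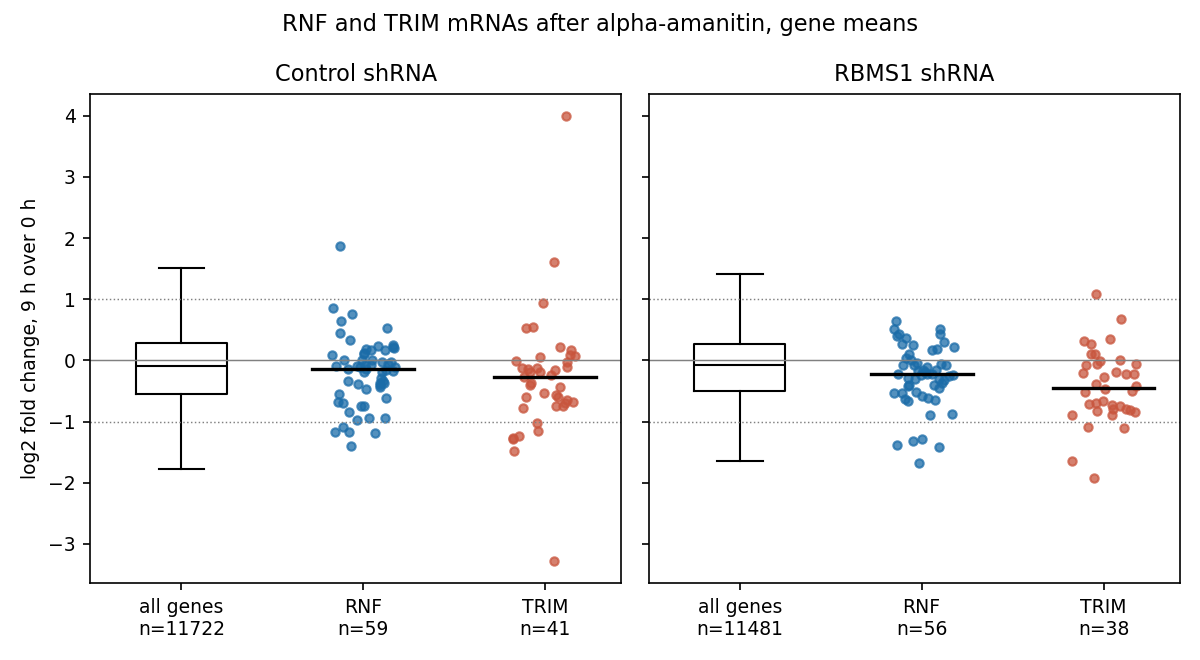
Log2 fold change of 9 h over 0 h per gene, control shRNA on the left and RBMS1 shRNA on the right; points are RNF and TRIM genes, thick lines their medians, and boxes show the quartiles of all genes with whiskers to the last value within 1.5 times the box. The TRIM medians (−0.26 and −0.44) sit below the RNF medians (−0.13 and −0.22), and the lowest TRIM point, TRIM23, stands at −3.28.

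The 2 populations ordered the members alike where a single transcript was listed. Over the 57 members with 1 NM transcript and a value in both tables, Pearson's r between the tables was 0.77 and Spearman's rho 0.77. Over the 37 with several transcripts r was 0.29 and rho 0.49. All genes showed the same split in rho, with 0.80 over those with 1 transcript and 0.44 over those with several. These correlations run across genes, which are not replicates, and the points share libraries and, within a gene, reads divided among isoforms. The next paragraphs therefore take the members with 1 transcript first.

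**Figure D2:**
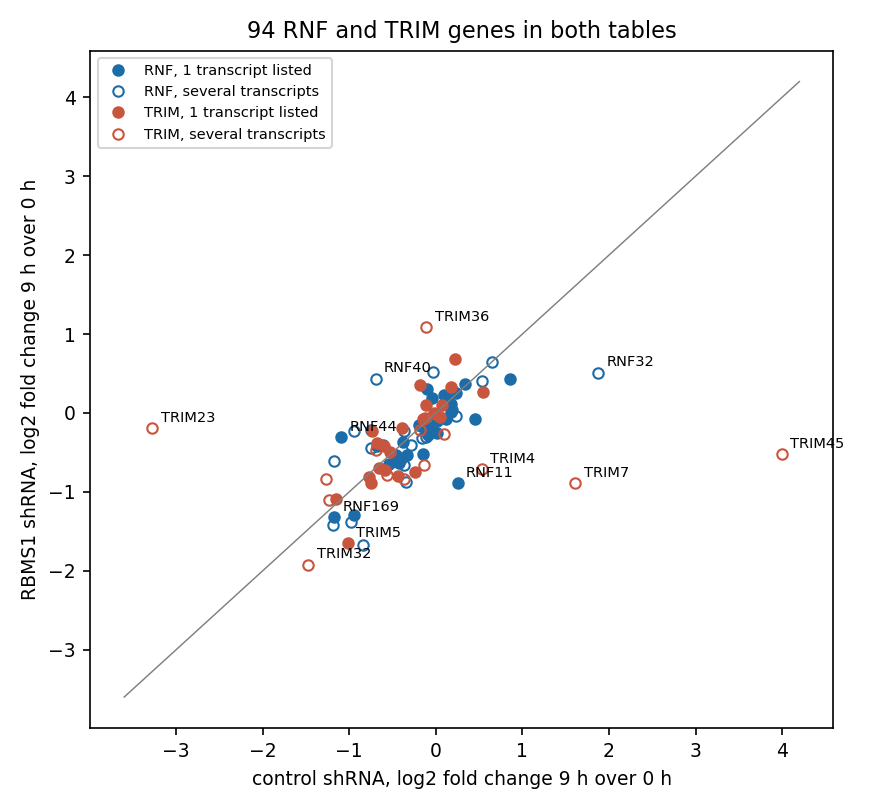
Log2 fold change in knockdown cells (vertical) against control cells (horizontal) for the 94 genes in both tables; filled points have 1 NM transcript, open points several, and the line marks equal values. Filled points follow the line, with RNF11 and RNF44 farthest from it, while TRIM45, TRIM23, TRIM7 and TRIM36, all with several transcripts, lie far off.

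Of the 61 members with 1 NM transcript, 4 were near or past a 2-fold loss in both populations. TRIM5, a restriction factor that binds retroviral capsids (chr11:5588635-5685074, GRCh38), was listed at −1.01 (control) and −1.65 (knockdown) in the authors' deposited tables. RNF169, which binds ubiquitinated histone at DNA breaks (chr11:74748849-74842413), had −1.18 and −1.32 there. TRIM59, a membrane-bound TRIM protein (chr3:160435503-160449786), had −1.15 and −1.09. These 3 single-transcript genes were at −1 or below in both tables. In all, 5 of the 61 were so in control cells and 4 of 57 in knockdown cells, beside 10.4% and 8.88% of all genes with 1 transcript. RNF217, a RING-between-RING ligase (chr6:124962437-125092634), came next with −0.94 and −1.29 in the authors' deposited tables. With genes of several transcripts, such as TRIM32 and TRIM68, 6 of the 94 members were at −1 or below in both, beside 5.10% of all genes, so the share is near the background.

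At the other end stood mRNAs whose share of the library was higher at 9 h. RNF207, a protein known from cardiac repolarisation, was listed at 0.86 (control) and 0.43 (knockdown) in the authors' deposited tables. TRIM9, a brain-enriched ligase that binds microtubules, had 0.22 and 0.68, and TRIM52 had 0.54 and 0.26. RNF130, a membrane-anchored ligase with a protease-associated domain, had 0.33 and 0.36, and RNF167, of the same build, had 0.24 and 0.26. TRIM28, the corepressor KAP1 of KRAB zinc finger proteins, had 0.17 and 0.32 in the authors' deposited tables. None of the 61 reached 1 in either table, beside 2.38% (control) and 2.46% (knockdown) of all genes with 1 transcript.

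With only single-transcript genes, the order of the classes held in both tables, but its size did not. The median over 35 RNF genes was −0.05 in control cells and over 26 TRIM genes −0.33, against −0.10 over all genes with 1 transcript, so that RNF lay above the median gene. In knockdown cells it was −0.17 over 34 RNF genes and −0.22 over 23 TRIM genes, a gap of 0.05, against −0.09 over all such genes. In control cells 20 of these 26 TRIM genes (76.9%) and 19 of the 35 RNF genes (54.3%) lay below 0, beside 56.8% of all genes with 1 transcript. In knockdown cells the shares were 69.6% and 67.6%, beside 56.3%. The RNF share in control cells is thus near the background.

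The 3′UTR was looked at next, because AU-rich elements there are textbook sites of mRNA decay. A 3′UTR of 20 nt or more was found in GENCODE release 29 for 97 of the 100 members. Its median length was 1716 nt, with 1388 nt in RNF and 1743 nt in TRIM genes, against 1117 nt over all genes. The pentamer ATTTA was in 88.7% of the members' 3′UTRs and in 70.0% of all, and the heptamer TATTTAT, which contains it, in 37.1% and 32.8%. ATATA was in 59.8% and 58.4%. Motifs were searched on the mRNA strand only, sites may overlap, and a longer 3′UTR holds more of any short motif.

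The windows below show the heptamer (in capitals, 25 bases, 5′ to 3′ on the mRNA strand, written as DNA, GRCh38) in low members and in members near 0. They are shown because the same letters stand in both. TRIM5 (2 sites, minus strand, chr11:5664504-5664528 and chr11:5663642-5663666) and RNF217 (the first of 3 sites, plus strand, chr6:125084835-125084859) are low members. TRIM38, a regulator of innate signalling with −0.74 and −0.89 in the authors' deposited tables, has 1 site (plus strand, chr6:25990820-25990844). RNF115 (the first of 9 sites, minus strand, chr1:145743801-145743825) and TRIM44 (the first of 2 sites, plus strand, chr11:35808048-35808072) lie near 0.
TRIM5, site 1: tctgccagaTATTTATcacccaatt
TRIM5, site 2: aaatatgtaTATTTATtatttgtca
RNF217: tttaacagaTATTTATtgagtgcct
TRIM38: aaattttatTATTTATttcacacca
RNF115: tattattatTATTTATttatttatt
TRIM44: taggaatccTATTTATattattttt

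RNF115, a cytosolic ligase also known as BCA2, held the heptamer 9 times, 7 of them in a single AT-rich run, and was listed at −0.08 (control) and −0.18 (knockdown) in the authors' deposited tables. TRIM44 had −0.01 and −0.01 with a 3′UTR of 11622 nt, while RNF169 (−1.18 and −1.32) and TRIM59 (−1.15 and −1.09) held no heptamer. Some members near 0 thus held the heptamer and some low members did not, but medians were lower with it. Whether it bears on these values was not tested. Control and knockdown medians were −0.26 and −0.31 over the 36 members with it, and −0.14 and −0.21 over the 61 without it. All genes gave −0.21 and −0.20 with it, and −0.02 and −0.00 without it. The pentamer ATTTA did not divide the members in the same way. Control and knockdown medians were −0.18 and −0.23 over the 86 members with ATTTA, and −0.40 and −0.22 over the 11 without it. All genes gave −0.14 and −0.14 with ATTTA, and 0.07 and 0.10 without it. A match is a string of letters in the annotated 3′UTR, not a measured site.

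Longer 3′UTRs went with lower values in both populations for RNF, and for TRIM in control but not in knockdown cells. The 40 members with a 3′UTR of 2000 nt or longer had medians of −0.40 in control and −0.31 in knockdown cells, against −0.11 and −0.22 for the 57 shorter ones. All genes gave −0.21 and −0.18 against −0.03 and −0.01. Spearman's rho between length and the value was −0.25 in control and −0.11 in knockdown cells over the members, and −0.18 in each over all genes. Across RNF it was −0.35 and −0.20, and across TRIM −0.09 and 0.087. The 16 TRIM genes with long 3′UTRs had a lower control median than the 23 others (−0.47 against −0.24) and a higher knockdown median (−0.29 against −0.59). The heptamer and the 2000 nt line were chosen after values had been seen.

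**Figure D3:**
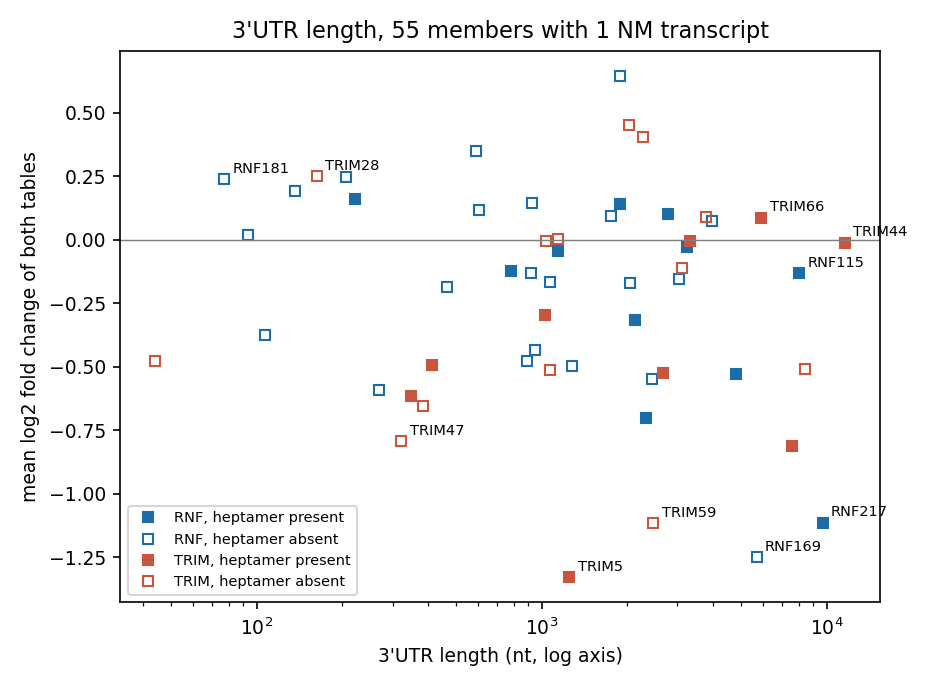
Mean log2 fold change of both tables (vertical) against 3′UTR length (horizontal, log axis, nt) for single-transcript members; filled squares hold TATTTAT, open squares do not. TRIM5, RNF217, RNF169 and TRIM59 lie lowest, and TRIM44 and RNF115 lie near 0 with long 3′UTRs.

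Chromatin and DNA damage ligases differed widely among themselves. The 10 RNF members of this list had a median of −0.16 in control cells, and 9 of them −0.18 in knockdown cells. RNF8 and RNF168, which act in turn on histones around a DNA break, had −0.05 and −0.13 (control) and 0.19 and −0.18 (knockdown) in the authors' deposited tables. RNF4, which targets SUMO-conjugated proteins, had −0.19 and −0.15. RNF20, a subunit of the histone H2B ligase, had −0.03 and −0.23 in the authors' deposited tables. Only RNF169 (above) and RNF111, the SUMO-targeted ligase Arkadia, were at −1 or below in control cells, 2 of 10 beside 11.0% of all genes. RNF111 had −1.40 as the mean of its transcripts and was not listed for knockdown cells.

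RNF members of the RING-between-RING class, which pass ubiquitin through a thioester on the ligase itself, had gene means below 0. All 7 listed members did so in both tables, with medians of −0.40 and −0.52, beside 55.7% and 55.2% of all genes below 0. With all listed transcripts RNF14, also an androgen receptor coactivator, was the lowest at −0.98 and −1.38, and RNF217 followed with the values given above. The control mean of RNF14 includes a transcript at −3.90 that was listed for control cells only. Over shared transcripts RNF14 had −0.01 in control cells and was not the lowest there. RNF31 (HOIP), the catalytic subunit of the complex that builds linear ubiquitin chains, had −0.40 and −0.58. Its partner RBCK1 (HOIL-1), of the same class under another name, had 0.50 and 0.44 in the authors' deposited tables. RNF144A, which acts on the DNA repair kinase DNA-PK, had −0.15 and −0.52 in the authors' deposited tables. RNF216 (TRIAD3) had −0.61 and −0.40 as a mean of 2 transcripts, and RNF19B stood highest at −0.07 and −0.23. By the authors' deposited values, the RNF19B transcripts ran from −1.32 to 1.77 in control cells and from −0.63 to 0.38 in knockdown cells. Some transcripts of RNF14 and RNF19A also lay above 0 (below). The 5 listed ligases of the class with other names had medians of −0.28 and −0.12, with ARIH1 lowest at −0.44 and −0.60.

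Membrane-anchored RNF ligases of the endoplasmic reticulum and endosomes had a median near that of all genes in control cells, but below it in knockdown cells. Over 16 members the median was −0.06 in control cells, against −0.09 over all genes. Over 14 it was −0.22 in knockdown cells, against −0.07. The median centred difference of the 14 was 0.02. No member was at −1 or below, or at 1 or above, in either table. Of all genes, 11.0% (control) and 9.88% (knockdown) were at −1 or below, and 3.78% and 4.0% at 1 or above. Over 16 and 14 members such shares amount to few genes, so the absence of large values does not set this list apart. RNF139 (TRC8), an endoplasmic reticulum ligase tied to sterol metabolism, was the lowest by the mean of both tables, with −0.54 and −0.64 in the authors' deposited tables. RNF185 and RNF121, also of the endoplasmic reticulum, had −0.68 and −0.42, and −0.46 and −0.53, in the authors' deposited tables. RNF26, which holds endosomes near the nucleus, had −0.74 and −0.21 there. RNF5, which acts in endoplasmic reticulum quality control, lay close to 0 in control cells at −0.09, and had −0.28 in knockdown cells by the authors' deposited tables. RNF170, which acts on inositol trisphosphate receptors, was the highest of those in both tables, at 0.65 and 0.65, a mean that 1 isoform carries (below). RNF128 (GRAIL), known from T cell anergy, had 0.75 in control cells in the authors' deposited table and no value for knockdown cells.

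Ligases of Wnt, TGF-beta and receptor signalling held some of the lowest RNF genes. The median was −0.36 over 9 members in control cells and −0.77 over 8 in knockdown cells, all 8 below 0 beside 55.2% of all genes. For some of them the 2 populations are represented by partly different transcripts. Over shared transcripts RNF34 had −0.36 (control) and 0.12 (knockdown), and RNF146 −0.12 and −0.19, so not all 8 then lay below 0. The median centred difference of the 8 was −0.10. RNF146, which recognises poly-ADP-ribosylated proteins and degrades axin, had −0.84 and −1.67 as means of different transcripts in the 2 tables. RNF41 (NRDP1), a ligase of the receptor ERBB3, had −0.34 and −0.87. RNF6 was the highest of the 8 by the mean of both tables, at −0.16 and −0.32. RNF members with a part in innate immunity (8 listed) had medians of −0.13 and −0.28. RNF213, a very large ligase with an ATPase domain, had −0.75 and −0.45. RNF125, which limits RIG-I signalling, had −0.43 and −0.63 in the authors' deposited tables, and RNF114 0.17 and 0.01.

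Among TRIM genes the interferon-related and antiviral list (10 members) had medians of −0.39 in control and −0.21 in knockdown cells, with 9 and 8 members below 0, beside 55.7% and 55.2% of all genes. TRIM21, the cytosolic antibody receptor, had −0.59 and −0.72 in the authors' deposited tables. TRIM56 had −0.60 and −0.41, and TRIM38 and TRIM5 were lower still. TRIM25, which acts on the RNA sensor RIG-I, had 0.08 and 0.10 in the authors' deposited tables and was the highest of the list by the mean of both. TRIM23 had the lowest mean, −3.28, in control cells, a value that rests on 1 transcript (below).

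The TIF1 chromatin cofactors spread out by member. TRIM24 and TRIM33, which bridge nuclear receptors or SMAD proteins to chromatin, had −0.69 and −0.57 in control cells and −0.47 and −0.79 in knockdown cells. TRIM28 (above) and TRIM66 lay higher, and the authors' deposited tables list −0.18 and 0.36 for TRIM66. The 3 listed TRIM genes with NHL repeats all lay below 0 in both tables, beside 55.7% and 55.2% of all genes. TRIM32, a ligase mutated in a limb girdle muscular dystrophy, had −1.47 and −1.92 and was the lowest TRIM gene in knockdown cells. TRIM2 had −0.37 and −0.84 (transcripts below), and TRIM3 −0.24 and −0.75. TRIM71 was not listed in either table.

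The 2 listed microtubule-binding TRIM genes, TRIM9 and TRIM36 (transcripts below), had medians of 0.06 in control and 0.88 in knockdown cells. A further list of 21 TRIM genes had medians of −0.26 and, over 18 of them, −0.59. The median centred difference of the 18 was 0.00, with 9 below 0 and 9 above. TRIM68 had −1.24 and −1.10 and TRIM13, an endoplasmic reticulum ligase, −1.27 and −0.83. TRIM47, with a 3′UTR of only 322 nt and no ATTTA, had −0.78 and −0.81 in the authors' deposited tables. TRIM27 had −0.53 and −0.50, and TRIM15 −0.44 and −0.79, in the authors' deposited tables. Apart from TRIM15, these low single-transcript genes had close values in both populations. TRIM41, TRIM44 and TRIM29 lay within 0.10 of 0 in both. TRIM37, a ligase that limits centriole assembly, had 0.10 and −0.26. The 14 members on no role list lay between RNF214 at −1.18 and −0.61 and RNF32 (transcripts above) at 1.88 and 0.51. Among them RNF7, a RING subunit of cullin ligases that pairs with E2 enzymes of the NEDD8 pathway, had 0.53 and 0.41 as a mean of 3 transcripts. RNF181 had 0.20 and 0.28 and RNF10 0.12 and 0.17 in the authors' deposited tables.

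Chromosomes 6 and 11 held the most TRIM members. The 7 members on chromosome 6 had a median of −0.44 in control cells, and the 6 listed for knockdown cells −0.58, against −0.20 and −0.17 over all genes of that chromosome. The 7 on chromosome 11 had −0.24 and −0.72, against −0.03 and −0.01. The TRIM genes elsewhere had −0.26 and −0.38, so the control median on chromosome 11 was no lower than theirs. TRIM39 and the readthrough gene TRIM39-RPP21 on chromosome 6 overlap, as do RNF103 and RNF103-CHMP3. How reads were divided between such pairs, or between RNF216 and its pseudogene, is not stated, so these values are uncertain.

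Knockdown of RBMS1 left the members about where the other genes were. The median centred difference was −0.06 over 56 RNF genes and 0.04 over 38 TRIM genes, against 0.00 over all genes. Of the 57 single-transcript members, 50 (87.7%) differed by less than 0.5 in size, as did 87.0% of all genes with 1 transcript. A difference of −1 or below was found for 2 RNF genes (RNF14 and RNF11) and 2 TRIM genes (TRIM4 and TRIM45), beside 3.90% of all genes. A difference of 1 or above was found for 1 RNF gene (RNF40) and 2 TRIM genes (TRIM23 and TRIM36), beside 4.62%. These counts, 4 and 3 of 94, are near the background.

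RNF11 was the only one of these 7 genes with 1 transcript, beside 1.56% of all such genes at −1 or below and 2.13% at 1 or above. It encodes a small RING protein that works with ITCH and the A20 complex (chr1:51236273-51273447). The authors' deposited tables list 0.25 for control and −0.89 for knockdown cells, which gives a centred difference of −1.13. Its 3′UTR of 2133 nt holds 1 TATTTAT and 1 ATATA. RNF44 moved the other way, from −1.10 to −0.31 by the authors' deposited tables (centred difference 0.80), with a 3′UTR of 2331 nt and 12 ATATA. TRIM5 had a centred difference of −0.61, TRIM66 0.56, RNF26 0.55, TRIM3 −0.50 and TRIM9 0.47. RNF169, TRIM59 and TRIM38, low in both populations, differed by −0.13, 0.08 and −0.12.

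**Figure D4:**
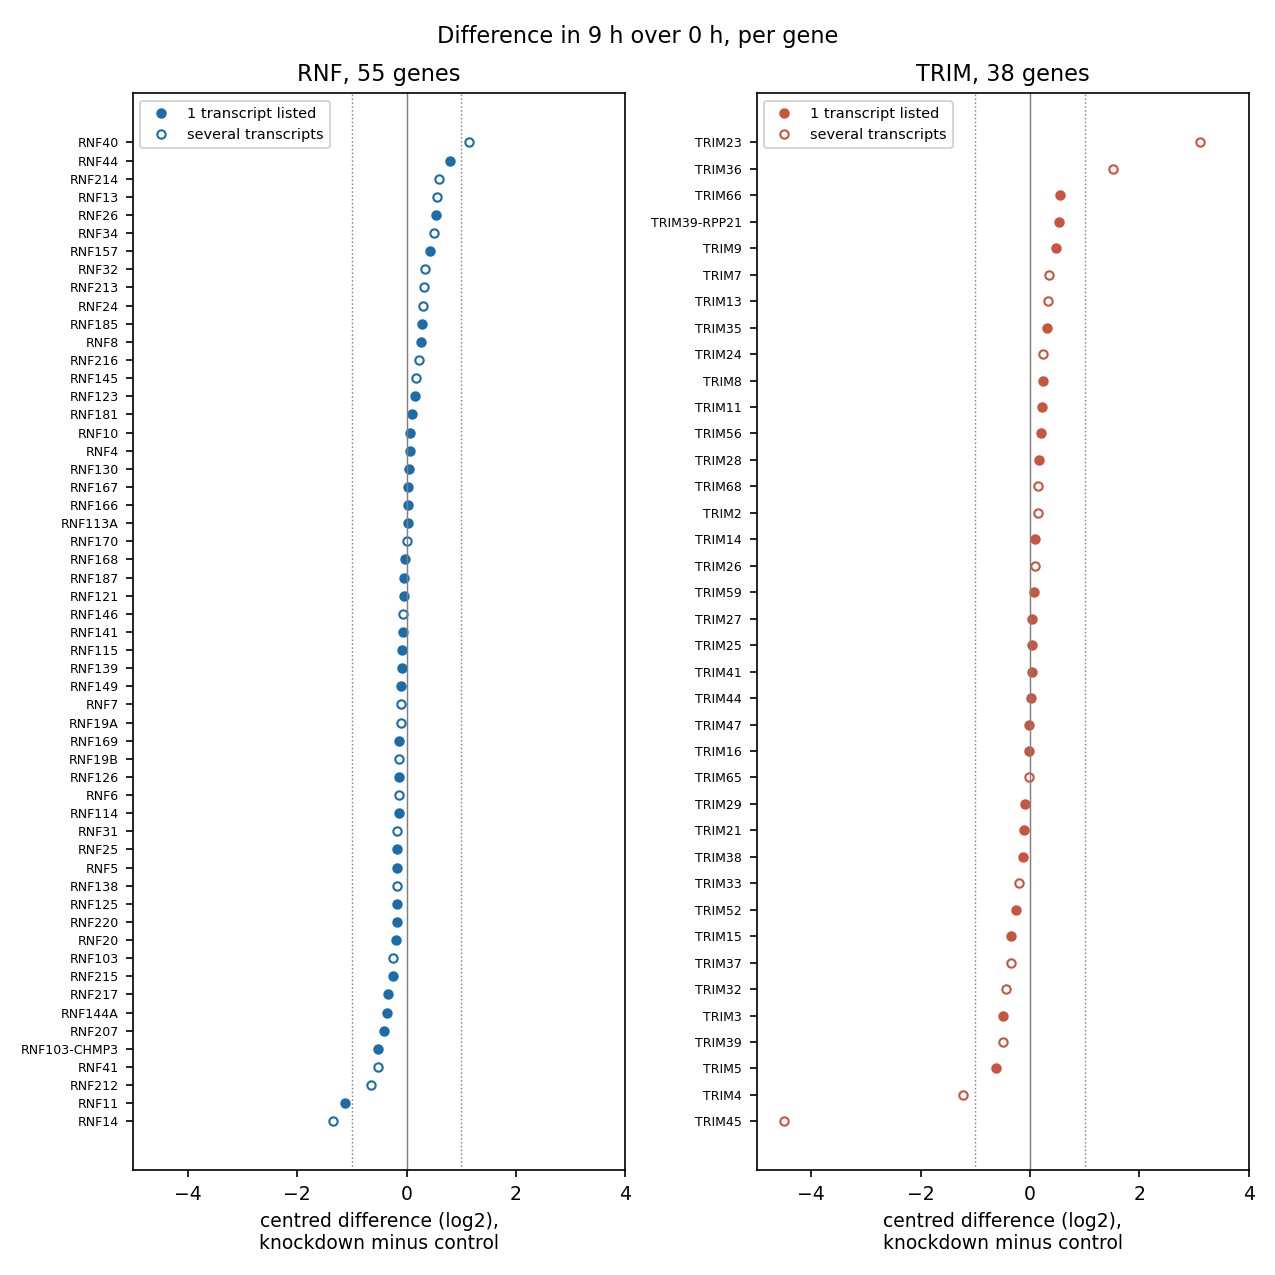
Centred difference per gene (log2, knockdown minus control), RNF on the left and TRIM on the right, ordered by value; filled points have 1 NM transcript and dotted lines mark −1 and 1. RNF11 is the single filled point beyond a dotted line.

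Isoforms of a gene often disagreed. Of the 39 members with several NM transcripts, 19 (11 of 24 RNF and 8 of 15 TRIM genes) had transcripts 2 or more apart on the log2 scale within a table, beside 39.6% of all such genes. The lowest transcript was the same in both tables for 16 of 32 members with at least 2 shared transcripts, and for 53.8% of all such genes. The most extreme gene means belong to such genes. TRIM45 had −1.63 and 9.64 for its transcripts (control) and −0.03 and −1.01 (knockdown) in the authors' deposited tables. Those 2 transcripts have 3′UTRs of the same length, 1245 nt.

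TRIM23, a TRIM protein with an ARF-like GTPase domain, had −0.52, −0.08 and −9.23 (control) and −0.67, −1.21 and 1.30 (knockdown) in the authors' deposited tables. TRIM36, a microtubule-binding ligase, had a transcript at −1.84 and 7.11, another at 0.42 and −3.89, and another at 0.18 and 0.04 in the authors' deposited tables. TRIM7 had −1.90, 7.26 and −0.52 in control cells there, and the transcript at 7.26 was not listed for knockdown cells. In TRIM23, TRIM45 and TRIM7 a single transcript sets the control mean, while in TRIM36 the knockdown mean averages large values of opposite sign. The median over transcripts turns the sign of the difference of TRIM23 (to −0.13) and TRIM36 (to −0.13) and of the control value of TRIM7 (to −0.52).

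Some isoform patterns were alike in both populations. RNF170 had −0.33 and 0.25 for its longer transcripts and 2.03 for a transcript with a shorter 3′UTR (1154 nt against 2862 and 2858 nt) in control cells in the authors' deposited tables. In knockdown cells these were −0.49, −0.26 and 2.69. RNF19A, a RING-between-RING ligase, had 0.65 and −1.22 (control) and 0.82 and −1.64 (knockdown) in the authors' deposited tables. TRIM32 had −2.18 and −0.77, then −3.43 and −0.41, and TRIM24 had −1.32 and −0.06, then −0.88 and −0.06, there.

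Several other low gene means hid a wide spread. RNF14 had −3.90, −1.16, −0.27 and 1.41 (control) and, for the 3 transcripts other than the first, −2.19, −0.88 and −1.07 (knockdown) in the authors' deposited tables. RNF146 shared only 1 transcript between the authors' deposited tables, at −0.12 and −0.19, while −1.97 (control) and −3.15 (knockdown) belong to transcripts listed in 1 table each. So the low mean of RNF146 rests on isoforms that were not listed in both populations. TRIM2, a ligase of neurofilament light chain, had −3.65, 1.45 and 1.10 (control) and −1.90, 1.30 and −0.13 (knockdown) for its shared transcripts in the authors' deposited tables. A further TRIM2 transcript had −2.61 there and was listed for knockdown cells only. Over shared transcripts TRIM2 averaged −0.37 (control) and −0.24 (knockdown). TRIM13 had −3.11, −1.02 and 0.31 (control), then −0.97, −1.62 and −0.28 (knockdown), in the authors' deposited tables. RNF214 had −2.25 and −0.10 (control) but −0.60 and −0.61 (knockdown) there.

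Other members kept the order of their isoforms. RNF31 had −0.61 and −0.19, then −0.95 and −0.22, in the authors' deposited tables. TRIM68 had −1.48 and −0.99, then −1.71 and −0.50, and RNF213 −0.94 and −0.55, then −0.88 and −0.02, in the authors' deposited tables. The same transcript was the lower in both populations for each of these 3 genes.

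RNF40, which forms the histone H2B ligase with RNF20, had −3.55, 1.55 and −0.09 (control) and 1.05, 0.25 and 0.01 (knockdown) in the authors' deposited tables. Its 3 accessions pair with 1 GENCODE transcript, so their structures were not compared. TRIM4 had 0.89 and 0.17 (control) and −1.62 and 0.20 (knockdown) in the authors' deposited tables, so that 1 of its isoforms carries nearly all of the difference of −1.22.

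**Figure D5:**
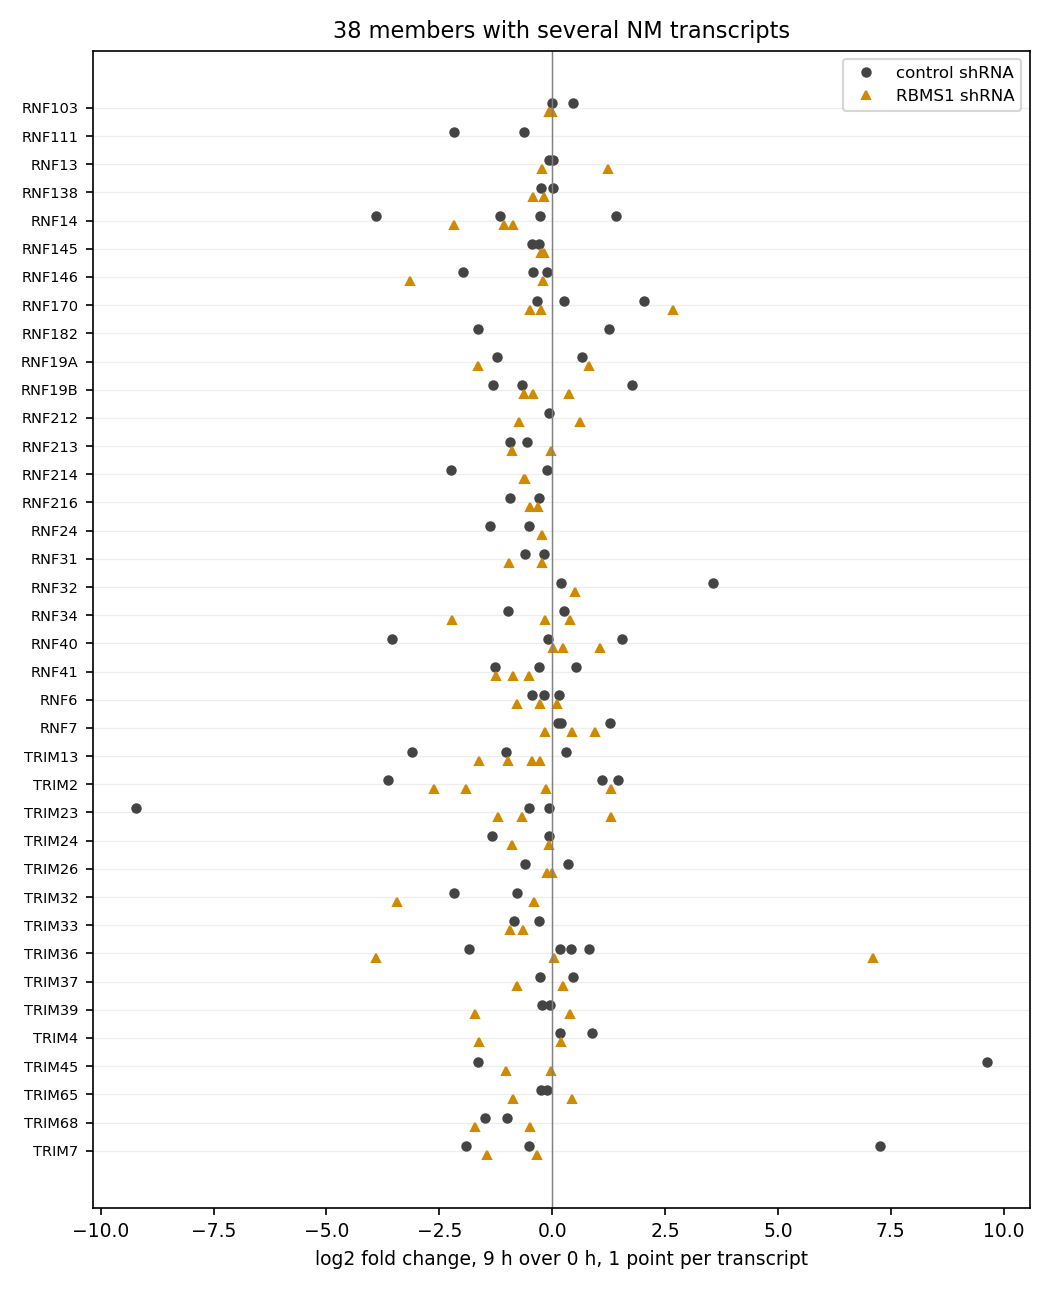
Log2 fold change of 9 h over 0 h for each NM transcript of genes with several; circles are control cells, triangles knockdown cells. Points past 5 in size belong to TRIM23, TRIM36, TRIM45 and TRIM7.

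Ubiquitin ligases outside the 2 classes also lay below the median gene. Of 43 RING ligases with other names, 41 were listed, with medians of −0.39 in control and −0.37 in knockdown cells, from MKRN2 at −5.08 and −2.59 to MGRN1 at 4.26 and −0.28. Of these, 6 and 5 were at −1 or below in the 2 tables, near the background of 11.0% and 9.88% of all genes. A single transcript sets the control mean of MKRN2 and of MGRN1. By the authors' deposited values, the transcripts of MKRN2 had −9.68 and −0.47 in control cells, and those of MGRN1 9.17 and −0.66. Of 27 HECT ligases, 25 were listed, with −0.30 and −0.13, and HECTD2 was highest by the mean of both tables at 0.22 and 0.18. In this list 4 of 25 had a centred difference of 1 or above, beside 4.62% of all genes. The 52 listed F-box genes had −0.33 and −0.29 and the 44 listed USP deubiquitinase genes −0.45 and −0.25.

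Upstream of the ligases the values were higher. The 32 UBE2 genes, which encode the E2 enzymes, had medians of −0.01 and −0.01. The 8 genes of ubiquitin and of activating enzymes, UBA2 (SUMO) and UBA3 (NEDD8) included, had 0.07 and −0.02. Among them UBB, a polyubiquitin gene, averaged 0.47 and 0.96 over 3 transcripts. No value shows that the lower medians are particular to RNF or TRIM.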

How the data were processed

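The authors deposited log2 fold changes of 9 h over 0 h, 1 table per shRNA, with the libraries of a group combined; per the file headers the columns are a RefSeq accession and logFC. Base and direction are not in the headers: base 2 is what Cuffdiff writes. The submitters' processing notes name STAR 2.5, Cufflinks, Cuffdiff and hg38 and give no roles. How values were normalised and filtered is not stated. RNA was depleted of ribosomal RNA (Ribo-Zero Gold, ScriptSeq v2), per the labels' protocols. The deposited tables hold no counts, so depth and precision are unknown. All sizes are under 10.

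Of 22468 accessions, 22132 got a symbol from the RefSeq gene table (GRCh38.p14) and 212 by GENCODE 29; 124 were not. Only NM accessions were used. Gene values, differences, medians and counts were computed with Python 3.11.15 and pandas 2.3.3 and tested on simulated data. 3′UTRs and windows came from GENCODE 29 (GRCh38, the assembly of hg38), and per gene the longest 3′UTR among the listed transcripts was used. Coordinates of genes are those of the RefSeq table. No test was run, since libraries were combined upstream. The members, role lists and descriptions were chosen with earlier results of these data known, and lists of other genes serve only as a setting.

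Named genes were, in each class, the 6 lowest and 6 highest by their mean over the tables, the 5 largest and 5 smallest differences, 20 ligases of textbook roles, members with transcripts 2 or more apart, and the ends of each list; not all are described, and others, such as RNF26, TRIM16 and TRIM47, were named after their values were seen. Alternatives were other summaries over transcripts, single-transcript genes, shared transcripts, NR accessions, large values left out, ribosomal centring, a 1.5-fold threshold and readthrough genes left out. The planned search for the RING pattern in proteins was not run, and no protein sequence was used. A few genes counted in the lists are not reported here by name, and 1 of them is left out of the plots that label each gene.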

Additional observations from a re-analysis of the deposited data

How the results depend on the processing

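The RNF median stayed above the TRIM median in both tables under all alternatives run; the gap in control cells was 0.30 over transcripts in both tables, and in knockdown cells 0.054 with 1 NM transcript. Centred on ribosomal protein mRNAs (77 genes, medians 0.41 and 0.38), medians were −0.55 (RNF) and −0.68 (TRIM) in control and −0.60 and −0.82 in knockdown cells. The counts below are for genes at −1 or below (lower) and 1 or above (higher), RNF before TRIM. Unless given otherwise, they are out of 59 and 41 genes in control cells. In knockdown cells and in the difference they are out of 56 and 38. Under that centring 14 and 15 were lower in control and 10 and 16 in knockdown cells, beside 23.1% and 19.7% of all genes. No TRIM gene (0) was higher in knockdown cells, beside 2.46%, and 2 RNF differences were higher, beside 4.95%. At 1.5-fold, 14 and 15 were lower and 4 RNF genes higher in control cells, beside 23.2% and 9.21% of all genes. In knockdown cells 11 and 16 were lower and 1 and 2 higher, beside 21.0% and 9.08%. At this threshold 4 RNF differences were higher, beside 9.64%. Single transcripts as the unit gave 91 and 62 values in control cells, 84 and 59 in knockdown cells, and 80 and 57 differences. In control cells 14 and 13 of them were lower and 7 and 4 higher, beside 13.9% and 7.41% of all transcripts. In knockdown cells 10 and 13 were lower and 3 and 3 higher, beside 13.0% and 7.63%. In the difference 6 and 7 were lower and 4 and 5 higher, beside 8.33% and 8.65%. Genes with 1 NM transcript numbered 35 and 26 in control cells, and 34 and 23 in knockdown cells and in the difference. In control cells 2 and 3 of these were lower and 0 and 0 higher, beside 10.4% and 2.38% of all such genes. In knockdown cells 2 and 2 were lower, beside 8.88%, and 0 TRIM genes higher, beside 2.46%. In the difference 1 and 0 were lower and 0 and 0 higher, beside 1.56% and 2.13%. With the median over transcripts, 0 TRIM genes were higher in knockdown cells, beside 3.37% of all genes. In the difference 0 and 0 were higher, beside 4.07%. Over transcripts in both tables, 0 and 1 (of 56 and 38) were higher in control cells, beside 2.82% of all genes. With values past 5 in size left out, 0 TRIM genes were higher in control or knockdown cells, beside 2.88% and 3.08% of all genes. In the difference 1 was higher, beside 3.62%. With the transcript that changes least, 1 and 0 differences were lower and 0 and 1 higher, beside 2.31% and 2.98% of all genes. The median over transcripts reversed the difference of TRIM23 (−0.13) and TRIM36 (−0.13) and the control value of TRIM7 (−0.52). Leaving out values past 5 reversed the difference of TRIM23 (−0.62), TRIM36 in knockdown cells (−1.93) and its difference (−2.21), TRIM45 in control cells (−1.63) and its difference (1.62), and TRIM7 in control cells (−1.21), as did transcripts in both tables for TRIM7 (−1.21). The transcript that changes least reversed the differences of TRIM23 (−0.13), TRIM36 (−0.13), TRIM4 (0.042) and TRIM45 (1.62). These follow from which transcripts enter the mean, and the cause of the extreme values was not tested. NR accessions and readthrough genes turned the sign of no class median and moved no count by over 1.5 times; single genes whose transcripts a setting leaves as they are were not recomputed. No paired analysis was possible because the libraries are combined in the deposited tables, and replicates could not be left out for the same reason.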

Other observations

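Noncoding accessions with RNF or TRIM symbols were outside the membership rule. The pseudogene RNF216P1 was listed at −0.41 and −0.61 (control) and −0.95 and 0.051 (knockdown) for its 2 transcripts in the authors' deposited tables. RNF32-DT was listed there at −0.36 and −0.43. RNF4BP had −0.79 and −1.02 in the authors' deposited tables. A noncoding isoform of RNF121 had −1.13 and −1.96 in the authors' deposited tables, while its coding transcript had −0.46 and −0.53. A noncoding isoform of RNF8 had 1.19 and −0.38 in the authors' deposited tables. Whether reads of antisense genes were counted by strand is not stated.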
